A study of Mus musculus with 24 samples.

Results

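Of the 24982 genes counted in sorted bone marrow eosinophils of the mouse, 7 are described here: Thbs1, Lrg1, Chit1, Cd72, Fcrl1, Hrh2 and Rbpms. They were picked by name because their transcripts were much lower after interleukin 33 (IL-33) than in steady state, so the falls under IL-33 are given as a description with no test. All 7 were among the 12743 genes kept by the filter on low counts, which a gene can pass through the condition where it is high. Only the steps between stages within a condition were tested for these genes. Those steps are another contrast, but they use some of the libraries that showed the falls, and a gene picked for a large fall in a stage tends to be high there in steady state, so the steps are not free of the choice.

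The cells came from wild type C57BL6 mice and were sorted by flow cytometry into 4 stages of eosinophil maturation, I to IV, taken from mice left in steady state and from others given 400 ng of recombinant IL-33 into the peritoneum every day for 7 days. Each of the 8 groups held 3 libraries, 24 in all, and each library pooled marrow of 3 mice, so the spread is between pools and not between single animals. Before the sort, cells stained for Ly6G (neutrophils), CD90.2 (T cells), NK1.1 (natural killer cells) or CD45R (B cells) were taken out with magnetic beads. Levels are read counts relative to the size of the library, TMM-scaled (trimmed mean of M-values) and written CPM.

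Eosinophils are granulocytes that mature in the marrow under interleukin 5, filling their granules with cationic proteins before they leave for the blood and tissues. IL-33, released by damaged barrier tissue, signals through the receptor ST2 and drives eosinophilia. The 7 genes have no single pathway in common. The secreted proteins among their products are the matrix protein thrombospondin 1 (Thbs1), leucine-rich alpha-2 glycoprotein 1 (Lrg1) and the chitinase chitotriosidase (Chit1). The surface receptors are the inhibitory C-type lectin CD72, the Fc receptor-like protein FCRL1 and the histamine H2 receptor (Hrh2). Rbpms encodes an RNA-binding protein with an RNA recognition motif that regulates splicing.

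Upstream sequences of 3 genes are shown because Cd72, Fcrl1 and Hrh2 encode the receptors among the 7 and stayed at or below 2.57 CPM in every IL-33 library. Each is the 250 bases before the annotated start in RefSeq on GRCm38.p6, on the strand of the gene, and capitals mark matches to 5 searched motifs. Fcrl1 lies on chr3:87376137-87376386 (plus strand), Cd72 on chr4:43454627-43454876 (minus strand) and Hrh2 on chr13:54191883-54192132 (plus strand).
Fcrl1: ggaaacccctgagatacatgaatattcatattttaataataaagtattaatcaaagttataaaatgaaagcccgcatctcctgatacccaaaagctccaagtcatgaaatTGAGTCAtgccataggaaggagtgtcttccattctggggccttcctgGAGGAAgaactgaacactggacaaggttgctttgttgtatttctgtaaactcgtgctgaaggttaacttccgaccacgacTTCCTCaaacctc
Cd72: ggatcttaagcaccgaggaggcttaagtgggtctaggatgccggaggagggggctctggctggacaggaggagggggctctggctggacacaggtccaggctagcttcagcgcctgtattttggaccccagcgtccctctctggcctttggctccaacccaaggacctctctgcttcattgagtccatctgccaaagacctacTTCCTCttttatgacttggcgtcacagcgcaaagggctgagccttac
Hrh2: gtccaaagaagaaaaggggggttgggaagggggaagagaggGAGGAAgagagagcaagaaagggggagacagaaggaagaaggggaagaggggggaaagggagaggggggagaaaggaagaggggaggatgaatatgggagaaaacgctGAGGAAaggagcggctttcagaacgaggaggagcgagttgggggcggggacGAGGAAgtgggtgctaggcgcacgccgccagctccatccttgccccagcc
The motifs, searched on both strands, were GATAA (GATA factors), TTGCNNAA (C/EBP), GAGGAA (PU.1), TGANTCA (AP-1) and TGTGGT (RUNX). GAGGAA or its reverse complement TTCCTC stood 2 times in the Fcrl1 window, 1 time in that of Cd72 and 3 times in that of Hrh2, and 23.3% of all 32851 RefSeq windows of this length held it. Fcrl1 also held the AP-1 letters TGAGTCA, a motif found in 6.75% of windows. The Chit1 window held TGAGTCA and TGTGGT, the latter in 14% of windows, and that of Lrg1 held none of the 5. No match to GATAA (22.6% of windows) or TTGCNNAA (9.56%) was found in the windows of these 5 genes, no 2 matches overlapped, and the letters are a description of the windows and not of binding. Thbs1 and Rbpms had no entry.

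Gene counts per library ran from 8335138 to 14909453, so 1 library at 0 allows a level of up to 0.411 CPM in steady state and 0.290 CPM under IL-33 (3 counts, counting error only). All 10 eosinophil markers were detected in every group, and Epx, which encodes the granule peroxidase, averaged between 2702 and 16577 CPM in every group but stage IV of steady state, where it was 21.8 CPM. The 4 steady state libraries numbered 3 stood apart in Jun, an early stress gene, at 3331 to 5018 CPM against at most 2142.5 CPM elsewhere. Ratios of the 7 genes between conditions are given with and without these libraries, for Rbpms as a range. Among markers of other cells, 0, 12, 14 and 2 of 16 neutrophil genes were lower under IL-33 in stages I, II, III and IV by edgeR's quasi-likelihood test, and 2, 11, 12 and 3 of 17 monocyte and macrophage genes. Over all genes, 1.36%, 3.97%, 14.9% and 4.68% were called lower in these stages. Reads in no annotated feature made up 17.8 to 30.5% of a library in steady state and 9.19 to 16.6% under IL-33, with no overlap between the conditions. The part of these differences in the falls of the 7 genes and in the list calls was not tested. In these bulk samples fewer cells of a type and less RNA per cell cannot be told apart.

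The 7 genes did not fall alike. Within each of the 4 stages, every IL-33 library of Rbpms and Hrh2 lay below every steady state library of the same stage. The other 5 overlapped between conditions in 1 or more stages. The share of all genes that stayed apart in all 4 stages was not counted. All 3 IL-33 libraries lay below all 3 of steady state for 3 of the 7 genes in stage I, 6 in stage II, 5 in stage III and 5 in stage IV, and the counts were the same when the libraries numbered 3 were dropped. With the scaling factors also recomputed without those libraries, or with other scalings, the stage IV count was 6, since Cd72 overlapped there by 0.781 CPM in steady state against 0.804 CPM under IL-33. Of all 12743 genes, 11.4%, 11.4%, 22.2% and 14.9% did so in these stages, and 16.7%, 17.2%, 29.2% and 21.8% without those libraries. The median difference of the 7 was -3.35, -4.96, -6.16 and -4.21 on the log2 scale, against 0.02, 0.06, 0 and -0.04 over all genes. These counts and medians follow from how the genes were picked and nothing is read from them. No gene of the 7 was at 0 in all 12 IL-33 libraries: Chit1 was at 0 in 7, Fcrl1 in 4, Hrh2 in 3, Thbs1 and Cd72 in 2 each, and Lrg1 and Rbpms in none.

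**Figure D1:**
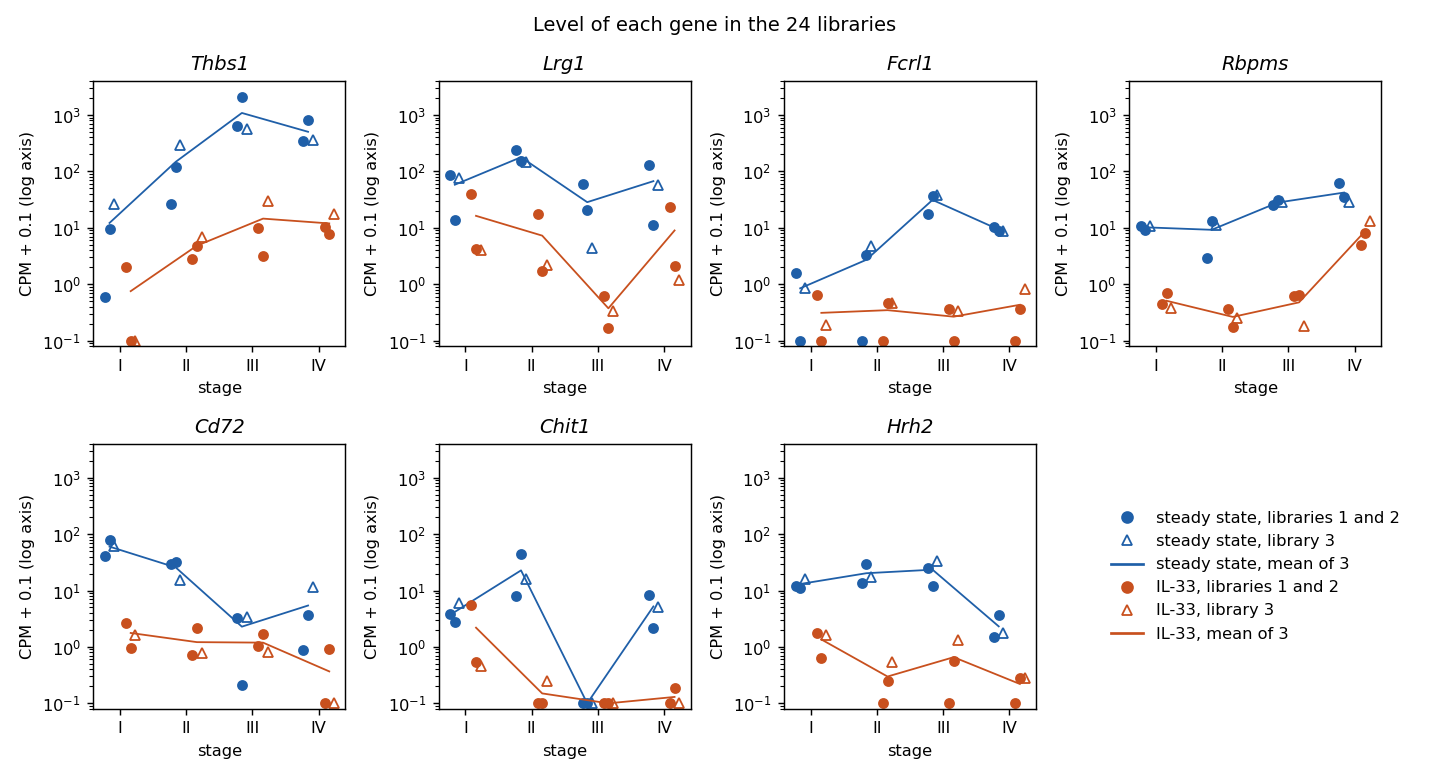
Level of each gene in the 24 libraries, as CPM plus 0.1 on a log axis, by stage and condition. Points are libraries, open triangles are the libraries numbered 3, and lines join the means of 3 libraries. Rbpms and Hrh2 are the genes with no overlap between conditions in any stage.

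Thbs1 (chromosome 2, 118111876 to 118127133, plus strand, GRCm38) encodes a matrix glycoprotein that binds CD36 and CD47 and activates latent transforming growth factor beta. In steady state its level was 0.496, 9.29 and 26.5 CPM in the 3 libraries of stage I and 26.1, 119 and 297 CPM at stage II. It stood at 631, 2053 and 576 CPM at stage III and at 344, 805 and 362 CPM at stage IV. Under IL-33 the libraries read 1.96, 0 and 0 CPM at stage I, 2.67, 4.61 and 6.88 CPM at stage II, 10.0, 3.02 and 30.3 CPM at stage III and 10.1, 7.68 and 17.7 CPM at stage IV. The conditions overlapped in stage I, where the lowest steady state library lay below the highest IL-33 library, and in no other stage. Means were 18.5-fold lower under IL-33 in stage I, 31.2-fold in stage II, 75.2-fold in stage III and 42.5-fold in stage IV. The log2 differences were -4.05 ± 1.19 (SE, n = 3 per group), -4.96 ± 1.09, -6.24 ± 1.14 and -5.41 ± 1.1.

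In the early stages the Thbs1 difference leaned on the steady state libraries numbered 3, the highest of their group in stages I and II. Without them the ratio of means was 7.49-fold in stage I and 15.4-fold in stage II, and 92.9-fold and 48.5-fold in stages III and IV. Per length of exon, the highest group mean among the 7 genes was that of Thbs1 in steady state stage III, at 179 CPM per kilobase. Lrg1 lay above Thbs1 on this scale in steady state stage I (41.2 against 1.99) and stage II (127 against 24.3). It also did so in IL-33 stages I, II and IV. The 4 IL-33 groups and steady state stage I made up the lower 5 places in the order of Thbs1 means, and steady state stages III and IV overlapped at the top. Thbs1 is also known from platelets. Over all genes, 1.36%, 3.97%, 14.9% and 4.68% were called lower under IL-33 in stages I to IV and 2.71%, 4.06%, 18.5% and 7.48% higher. Of 7 tested platelet and megakaryocyte markers 0, 0, 1 and 0 were lower and 0, 1, 1 and 1 higher, with list medians of 0.20, -0.32, -1.05 and 0.38 on the log2 scale. The lower one, Selp (P-selectin, named after its values were seen), fell from 19.9 ± 8.48 to 4.11 ± 0.151 CPM at stage III (SD, n = 3, edgeR adjusted p = 0.00687). Pf4 was at most 9.25 CPM in any library. Itga2b, the higher one, reached 652 CPM and carried most of the list's sum in every group but steady state stage IV. There Itga2b averaged 35.5 CPM and Selp 43.8 CPM. Their part in the Thbs1 difference was not tested. A noncoding gene on the other strand, Gm29233, shares 208 exon bases with Thbs1. The libraries do not mark strand, so reads of the 2 cannot be told apart there.

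Lrg1 (chromosome 17, 56119678 to 56122001, minus strand) encodes a secreted glycoprotein held in neutrophil granules that modulates signalling by transforming growth factor beta. Steady state libraries read 85.0, 13.7 and 75.2 CPM at stage I, 235, 154 and 146 CPM at stage II, 60.1, 20.7 and 4.35 CPM at stage III and 132, 11.1 and 58.3 CPM at stage IV. IL-33 libraries read 40.5, 4.19 and 3.94 CPM at stage I, 17.8, 1.61 and 2.09 CPM at stage II, 0.514, 0.0670 and 0.241 CPM at stage III and 23.6, 1.97 and 1.09 CPM at stage IV. The first IL-33 library was the highest of its group in all 4 stages, and in stages I and IV it lay above the lowest steady state library. Means were 3.58-fold lower under IL-33 in stage I, 24.9-fold in stage II, 104-fold in stage III and 7.56-fold in stage IV, with log2 differences of -1.83 ± 1.12, -4.65 ± 1.26, -6.70 ± 1.57 and -2.92 ± 1.17. Without the libraries numbered 3 the ratio was 3.05-fold, 27.2-fold, 148-fold and 8.05-fold.

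Some neutrophil genes moved with Lrg1 from library to library and others did not. Ngp, the most abundant of the list, was highest in stage III of each condition, at means of 10287 CPM in steady state and 2494 CPM under IL-33. Lrg1 was lowest there, at means of 28.4 and 0.274 CPM. Ly6g averaged 24.3 CPM in steady state stage IV and 121 CPM under IL-33 (edgeR adjusted p = 0.0559). Ltf, the lactoferrin of neutrophil granules, read 1154, 93.5 and 147 CPM in the 3 IL-33 libraries of stage I and 537, 33.5 and 34.2 CPM in those of stage IV, again highest in the first. The 3 genes most like Lrg1 over the 24 libraries were Lcn2, Chil3 and Chil1, with Pearson r of 0.966, 0.962 and 0.958 on log2 CPM (prior count 2), and the first and second of them belong to the neutrophil list. The summed level of the 16 neutrophil markers ran from 6935 to 34720.5 CPM over the steady state libraries and from 2149 to 11533 CPM over the IL-33 libraries, although Ly6G-bearing cells had been removed. The part of neutrophil RNA in the fall of Lrg1 was not tested.

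**Figure D2:**
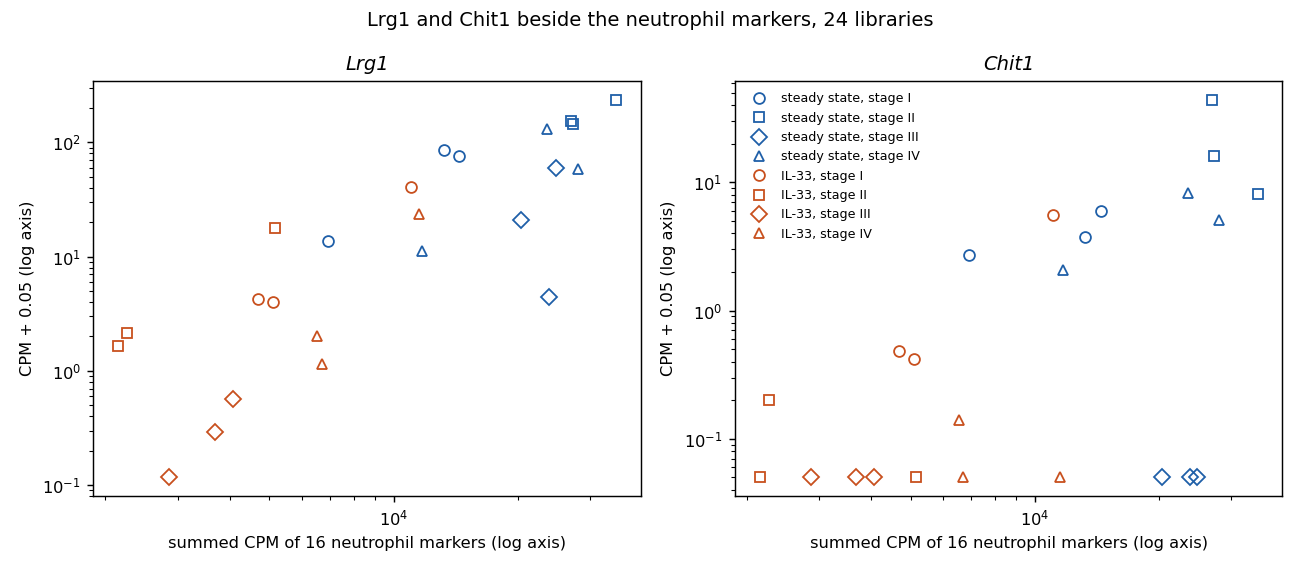
Lrg1 and Chit1 in CPM plus 0.05 against the summed CPM of 16 neutrophil markers, both on log axes, with 1 point per library, colour for condition and shape for stage. The lowest Lrg1 values lie at low marker sums, but in steady state stage III, at sums of 20376 to 24759 CPM, Chit1 is at 0 and Lrg1 reads 4.35 to 60.1 CPM.

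Chit1 (chromosome 1, 134111242 to 134151540, plus strand) encodes chitotriosidase, an enzyme that cleaves chitin and is made by phagocytes. In steady state it read 3.67, 2.64 and 5.92 CPM at stage I, 8.05, 43.9 and 15.9 CPM at stage II, 0 in all 3 libraries of stage III and 8.25, 2.03 and 5.07 CPM at stage IV. Under IL-33 it read 5.47, 0.436 and 0.367 CPM at stage I, 0, 0 and 0.150 CPM at stage II, 0 in stage III and 0, 0.0894 and 0 CPM at stage IV. In stage I the first IL-33 library lay within the steady state range and the other 2 below it, and in stages II and IV the conditions did not overlap. The fall was 1.95-fold in stage I. It was 434-fold in stage II, with an exact 95% counting interval of 120 to 3589 from 2 counts under IL-33, and 169-fold in stage IV, with an interval of 29.9 to 6722 from 1 count. Both conditions had 0 counts in stage III, so no fold can be given. The 434-fold and 169-fold are ratios of scaled counts summed over the group. Without the libraries numbered 3 the ratio of means was 1.51-fold in stage I, 521-fold in stage II and 173-fold in stage IV. Like Lrg1, Chit1 was highest in stage I in the first IL-33 library, and its most similar genes were Prom1, Fcnb and Trem3 (r of 0.897, 0.866 and 0.861). The part of neutrophil RNA in its levels was not tested.

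Cd72 (chromosome 4, 43446462 to 43454628, minus strand) encodes an inhibitory receptor best known from B cells. Its steady state libraries read 41.5, 77.5 and 60.7 CPM at stage I, 29.3, 32.2 and 15.1 CPM at stage II, 3.16, 0.114 and 3.29 CPM at stage III and 0.781, 3.51 and 11.7 CPM at stage IV. Under IL-33 it read 2.57, 0.873 and 1.56 CPM at stage I, 0.623, 2.05 and 0.673 CPM at stage II, 0.942, 1.61 and 0.722 CPM at stage III and 0, 0.804 and 0 CPM at stage IV. The conditions were apart in stages I and II and overlapped in stages III and IV. Its highest group was steady state stage I, the next stage II, and no IL-33 library passed 2.57 CPM. Means were 35.9-fold lower under IL-33 in stage I, 22.9-fold in stage II, 2.00-fold in stage III and 19.8-fold in stage IV, with log2 differences of -5.15 ± 1.02, -4.49 ± 1.00, -0.99 ± 0.94 and -4.21 ± 1.09. Without the libraries numbered 3 the ratio was 35.7-fold, 27.6-fold, 1.5-fold and 8.01-fold.

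Fcrl1 (chromosome 3, 87376387 to 87402934, plus strand) encodes a B cell receptor of the Fc receptor-like family. It read 1.49, 0 and 0.749 CPM in steady state stage I, 0, 3.25 and 4.58 CPM at stage II, 17.6, 37.3 and 38.5 CPM at stage III and 10.1, 8.78 and 8.78 CPM at stage IV. Under IL-33 it read 0.541, 0 and 0.0917 CPM at stage I, 0, 0.366 and 0.374 CPM at stage II, 0.257, 0 and 0.241 CPM at stage III and 0, 0.268 and 0.728 CPM at stage IV, with no more than 8 counts in any library. The conditions overlapped in stages I and II, where steady state was low as well, and were apart in stages III and IV. The fall was 188-fold in stage III (log2 difference -7.51 ± 1.56, 6 counts in all under IL-33) and 27.7-fold in stage IV. Stages I and II gave 3.54-fold and 10.6-fold. Without the libraries numbered 3 the ratio was 3.53-fold, 6.60-fold, 165-fold and 28.4-fold in stages I to IV.

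Since both genes are known from B cells, B cell markers were read beside them. Of the 12 tested, 0, 0, 2 and 1 were lower under IL-33 in stages I to IV and none higher, with list medians of -0.58, -2.63, -2.81 and -3.64 on the log2 scale, against 0.02, 0.06, 0 and -0.04 over all genes. Over all genes, 1.36%, 3.97%, 14.9% and 4.68% were called lower and 2.71%, 4.06%, 18.5% and 7.48% higher. The 2 of 12 in stage III lie near the share of all genes called lower there. The summed level of the 19 in the files, 293 to 796 CPM in steady state and 250 to 757 CPM under IL-33, was mostly that of Cd37, a gene of many leukocytes, at 545 ± 147 and 258 ± 6.96 CPM in stage III (edgeR adjusted p = 0.00140).

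Single B cell markers went different ways. Cd79a, a chain of the B cell receptor complex, read 8.74, 8.12 and 14.1 CPM in steady state stage III, where Fcrl1 was highest, up from a mean of 1.49 CPM in stage I, and 3.08, 2.01 and 2.09 CPM under IL-33 (edgeR adjusted p = 0.16). In stage IV it averaged 14.7 CPM in steady state and 9.44 CPM under IL-33, where Fcrl1 averaged 0.332 CPM. Ms4a1, which encodes CD20, was at 0 in all 3 steady state libraries of stage III. In steady state stage I, where Cd72 was highest, Ms4a1 was at 0, 0 and 1.42 CPM. Cd79b, another chain of the B cell receptor complex, averaged 33.2 CPM in that group and 32.2 CPM in IL-33 stage I (edgeR adjusted p = 0.977). In stage III Cd79b averaged 49.6 CPM in steady state and 26.1 CPM under IL-33 (0.0887). In stage IV the library with the highest Cd72 of its group, numbered 3, was also the one with Ms4a1 at 7.27 CPM, against 0 in the other 2. The part of B cell RNA in the Cd72 and Fcrl1 differences was not tested. Cd72 also shares 1423 exon bases with Tesk1 on the other strand, and reads there cannot be told apart. Tesk1 averaged 19.8, 3.70, 10.3 and 11.2 CPM at stages I to IV of steady state and 14.3, 16.7, 20.8 and 18.7 CPM under IL-33.

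Hrh2 (chromosome 13, 54192129 to 54236180, plus strand) encodes the H2 receptor, which raises cyclic AMP in the cell when histamine binds. It read 11.8, 11.0 and 16 CPM in steady state stage I, 13.6, 29.7 and 17.2 CPM at stage II, 24.6, 11.8 and 33.5 CPM at stage III and 1.39, 3.60 and 1.65 CPM at stage IV. Under IL-33 it read 1.69, 0.524 and 1.56 CPM at stage I, 0, 0.146 and 0.449 CPM at stage II, 0, 0.469 and 1.20 CPM at stage III and 0, 0.179 and 0.182 CPM at stage IV. No stage overlapped, and steady state stage IV was the one steady state group within reach of an IL-33 group, that of stage I. Means were 10.3-fold lower under IL-33 in stage I, 102-fold in stage II, 41.8-fold in stage III and 18.4-fold in stage IV (log2 differences -3.35 ± 0.86, -6.55 ± 1.03, -5.35 ± 0.95 and -4.07 ± 1.03). Leaving out the libraries numbered 3 gave 9.07-fold, 109-fold, 32.7-fold and 20.8-fold. Gm16578, on the other strand, shares 145 exon bases with Hrh2.

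Rbpms (chromosome 8, 33782643 to 33929863, minus strand) read 10.6, 9.12 and 10.6 CPM in steady state stage I, 2.76, 13.3 and 11.3 CPM at stage II, 25.3, 30.5 and 28.1 CPM at stage III and 62.6, 34.6 and 28.9 CPM at stage IV. Under IL-33 it read 0.338, 0.611 and 0.275 CPM at stage I, 0.267, 0.0732 and 0.150 CPM at stage II, 0.514, 0.536 and 0.0802 CPM at stage III and 4.93, 7.86 and 13.2 CPM at stage IV. The gene was near 0 in the first 3 stages under IL-33, with 15, 6 and 15 counts per group, and reached in stage IV the range of steady state stage II. Means were 24.8-fold, 55.8-fold, 74.2-fold and 4.86-fold lower under IL-33 in stages I to IV, with log2 differences of -4.60 ± 0.65, -5.75 ± 0.72, -6.16 ± 0.69 and -2.28 ± 0.55. Without the libraries numbered 3 the ratio stayed between 5.62-fold (stage IV) and 74.0-fold (stage III).

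**Figure D3:**
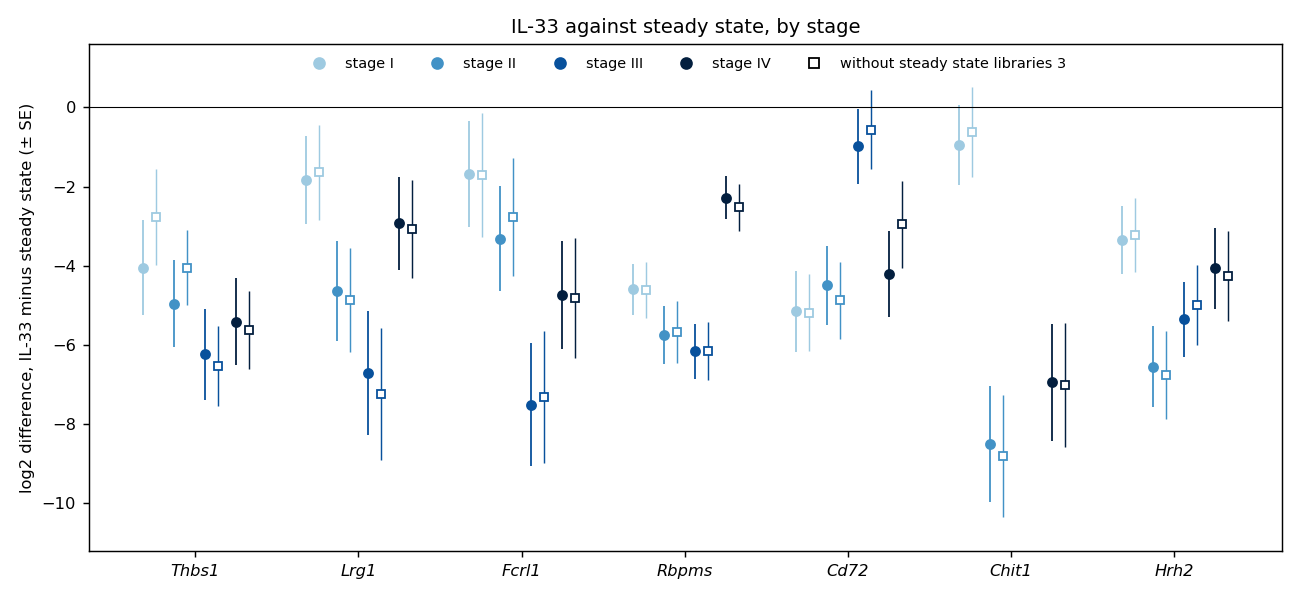
Log2 difference between IL-33 and steady state for each gene and stage, with its standard error from the edgeR fit, over 3 libraries per group (filled circles) and without the steady state libraries numbered 3 (open squares). Chit1 in stage III, with 0 counts in both conditions, is not drawn. Thbs1 in stage I and Cd72 in stage IV move the most towards 0 without those libraries.

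Along the stages of steady state the 7 genes took different courses. From stage I to II, Thbs1 was the 1 gene of the 7 that passed edgeR's quasi-likelihood test at an adjusted p under 0.05, rising 12.2-fold (adjusted p = 0.0427), where 4.87% of all genes were called, 3.58% higher and 1.29% lower. Without the libraries numbered 3 the adjusted p was 0.0545. Leaving out library 1 or 2 of stage I or library 3 of stage II also ended the call (adjusted p of 0.133, 0.155 and 0.175). It also ended with library totals (0.0589), limma-voom (0.0609) and only the 6 libraries compared (0.225). With the library number as a block, which pairs libraries in this step, the adjusted p was 0.00884.

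From stage II to III, 5 of the 7 passed, where 34.6% of all genes were called, 17.2% higher and 17.4% lower. Cd72 fell 11.7-fold (log2 -3.54 ± 0.96, edgeR adjusted p = 0.00635) and Chit1 at least 200-fold, from 686 counts to 0 (0.000126). Both calls held under all 14 alternatives run. Thbs1 rose 7.37-fold (adjusted p = 0.0254), Fcrl1 rose 11.9-fold (0.0304) and Rbpms rose 3.07-fold (0.0244). Without the libraries numbered 3 the adjusted p was 0.00578 for Thbs1, 0.0678 for Fcrl1 and 0.0583 for Rbpms. The call of Thbs1 ended without library 1 or 2 of stage II or library 2 of stage III, where it was highest, with an adjusted p of up to 0.130, and with DESeq2 (0.0593). The same held for Fcrl1 without library 1 or 2 of stage II or 2 or 3 of stage III (up to 0.0688) and for Rbpms without library 1 of stage II or 2 of stage III (up to 0.0943). Library totals (0.0524) and only the 6 libraries compared (0.0556) also ended the call of Fcrl1, as they did that of Rbpms (0.0752 and 0.116). Lrg1 was 6.28-fold lower in stage III with an edgeR adjusted p of 0.0762, and its call depended on the setting: it passed with limma-voom (0.00603), only the 6 libraries compared (0.0324), no filter (0.0468) and without library 1 of stage III (0.0422). Without the libraries numbered 3 its adjusted p was 0.194. Hrh2 differed by 1.16-fold (0.871).

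From stage III to IV in steady state, 2 of the 7 passed, where 9.23% of all genes were called, 3.55% higher and 5.67% lower. Chit1 rose at least 45.8-fold, from 0 to 154 counts (edgeR adjusted p = 0.00367), under all 14 alternatives. Hrh2 fell 10.5-fold (log2 -3.39 ± 0.85, adjusted p = 0.0139). The adjusted p of Hrh2 was 0.126 without the libraries numbered 3 and 0.0571 without the third of stage IV alone. Chit1 was thus the 1 gene of the 7 that was called down and up again in steady state, with 0 counts in 3 libraries of stage III between them.

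Under IL-33 the calls of the main fit, which held no block, were in the last step. From stage I to II none passed edgeR's test, where 0.0942% of all genes were called (0.0785% higher and 0.0157% lower). Of the 7, 3 had an unadjusted p under 0.05 (Thbs1, Chit1 and Hrh2), and limma-voom called 0. DESeq2 gave an adjusted p only for Thbs1 (0.327) and Lrg1 (0.701), and neither passed. It gave none for Fcrl1, Rbpms, Cd72, Chit1 and Hrh2, so it could not call them in this step. From stage II to III again none passed (0.0863% of all genes, all of them higher), 1 had an unadjusted p under 0.05, and DESeq2 called 1 and limma-voom 0. That gene was Lrg1, 26.2-fold lower in stage III with 10 counts left, at an edgeR adjusted p of 0.381, which became 0.0314 with the library number as a block. From stage III to IV, 2 of the 7 passed, where 29.1% of all genes were called, 13.1% higher and 16% lower. Rbpms rose 23-fold (log2 4.47 ± 0.65, adjusted p = 1.99e-05), higher in all 3 libraries of stage IV and called under all 14 alternatives. Lrg1 rose 32.4-fold (adjusted p = 0.0164), but without the first library of stage IV the log2 difference went from 5.02 to 2.50 and the adjusted p to 0.285. Without library 2 or 3 of stage III it was 0.0770 and 0.0578, and with limma-voom it was 0.270. The steps of the 2 conditions were not tested against each other for these genes, since that difference holds the contrast they were picked on.

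**Figure D4:**
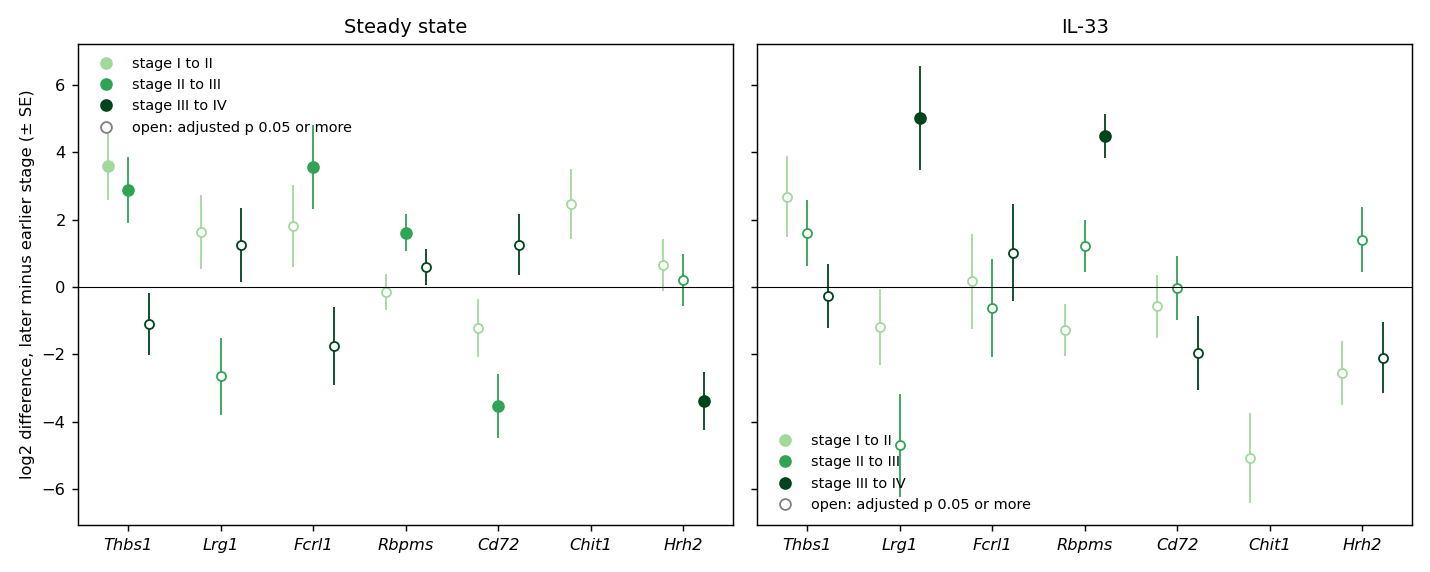
Log2 difference between successive stages for each gene, later minus earlier, with its standard error, in steady state (left) and under IL-33 (right). Filled points passed edgeR's adjusted p of 0.05, and steps of Chit1 to or from a group with 0 counts are not drawn. Under IL-33 the filled points are Lrg1 and Rbpms from stage III to IV.

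Within steady state the genes fell into unlike patterns, described by correlations of log2 CPM over 12 libraries. Same-numbered libraries deviated together from stage I to II and from III to IV, so the 12 may not be independent. The labels give only their numbers. Fcrl1 went with Rbpms (r = 0.832) and with Thbs1 (r = 0.764), and Lrg1 with Chit1 (r = 0.691). Cd72 ran against Fcrl1 (r = -0.813), Thbs1 (r = -0.778) and Rbpms (r = -0.752). Over all 24 libraries, where the picked falls enter, the genes most like each were Ptpn22, Nedd9 and Klhl28 for Thbs1 (r of 0.937, 0.924 and 0.923) and Senp2, Armc8 and Eif4e3 for Fcrl1 (0.897, 0.882 and 0.868). For Rbpms they were Xaf1, Polg2 and Stat4 (0.950, 0.939 and 0.921). For Cd72 they were Phyh, Il12a and Luc7l (0.884, 0.858 and 0.829), and for Hrh2 Galm, Aldh3b1 and Slc28a2 (0.898, 0.860 and 0.838). No gene of the 7 was among the 3 most like another.

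Relatives of the 7 genes, from 7 lists of partners and family members, were tested on the IL-33 contrast. The lists were chosen with earlier results of these data known, and the 7 genes were picked on this contrast. The shares are thus a description, and nothing is read from an excess over all genes. Of the 124 tested, 7, 22, 54 and 31 passed edgeR's test in stages I to IV, which is 5.65%, 17.7%, 43.5% and 25.0%, against 4.06%, 8.03%, 33.4% and 12.2% of all genes. The calls were 6 lower and 1 higher in stage I (1.36% and 2.71% of all genes), 16 lower and 6 higher in stage II (3.97% and 4.06%), 38 lower and 16 higher in stage III (14.9% and 18.5%) and 16 lower and 15 higher in stage IV (4.68% and 7.48%). When libraries were scaled by their totals, 26 list genes were lower and 19 higher in stage III, and the median of all genes moved from 0 to 0.27 on the log2 scale.

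Of 15 tested partners of thrombospondin, none passed in stage I, 1 was lower in stage II, 6 were lower and 2 higher in stage III, and 2 were lower and 3 higher in stage IV. Their median log2 difference was -1.32 in stage III, against 0 over all genes. Itga4, an integrin chain that binds thrombospondin and VCAM-1, fell from 116 ± 32.4 CPM (SD, n = 3) to 29.8 ± 12.7 CPM at stage III (edgeR adjusted p = 6.34e-05) and from 452 ± 123 to 105 ± 28.0 CPM at stage IV (8.93e-05). Fn1, fibronectin, fell from 52.9 ± 26.8 to 7.62 ± 2.22 CPM at stage III (0.0133), a call lost without library 2 of either condition (adjusted p of up to 0.0651). Calr, the chaperone calreticulin, went the other way, from 203 ± 107 to 2372 ± 489 CPM at stage III (8.15e-07).

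Of 20 tested genes of the transforming growth factor beta pathway, 0, 1, 6 and 4 were lower under IL-33 in stages I to IV and 1 was higher, in stage III. Tgfbi, a matrix protein induced by the pathway, fell from 125 ± 36.4 to 21.9 ± 6.08 CPM at stage II (edgeR adjusted p = 0.000290). In stage III it fell from 468 ± 148 to 27.1 ± 7.81 CPM (2.20e-07). Smad2, a signal carrier of the pathway, fell from 141 ± 5.00 to 84.2 ± 4.36 CPM at stage III (0.00629), a call lost when libraries were scaled by their totals (0.0790). The receptor gene Tgfbr1 stood at 43.4 ± 6.63 and 21 ± 6.62 CPM at stage III (0.0302), a call kept under 9 of 14 alternatives.

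Inhibitory receptors, the group of Cd72, fell more often than they rose in stages II and III: 6 and 8 of 22 were lower and 2 and 2 higher. In stage I, 2 were lower, and in stage IV 2 were lower and 2 higher. Clec4a2, an inhibitory C-type lectin, fell from 113 ± 40.7 to 21.4 ± 11.0 CPM at stage I (edgeR adjusted p = 0.00146) and from 559 ± 114 to 42.2 ± 14.3 CPM at stage III (1.01e-06). Siglece, an inhibitory sialic acid receptor, fell from 61.2 ± 13 to 6.09 ± 2.69 CPM at stage II (0.000236) and from 161 ± 44.5 to 11.8 ± 2.69 CPM at stage III (7.39e-06). Pirb, whose product is bound by 1 of the antibodies of the sort, stood at 1102 ± 303 and 279.8 ± 25.9 CPM at stage III (9.54e-05) and at 905 ± 106 and 898 ± 86.3 CPM at stage IV (0.997). Its reads may be split with near-identical Pira genes. In the same stages II and III, 12 and 14 of the 16 neutrophil markers and 11 and 12 of the 17 monocyte markers were lower, and their part in these calls was not tested.

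Fc receptors and Fc receptor-like genes, the group of Fcrl1, went both ways. Of 11 tested, 1 was lower in stage I and 1 in stage II, 3 were lower and 2 higher in stage III, and 3 were higher and none lower in stage IV. Ms4a2, the beta chain of the high-affinity IgE receptor, rose from 4.77 ± 2.92 to 315 ± 20.5 CPM at stage III (edgeR adjusted p = 8.68e-08) and from 2.71 ± 2.47 to 96.3 ± 26.6 CPM at stage IV (1.02e-06). Fcgr3, a low-affinity IgG receptor, fell from 2378 ± 593 to 1100.5 ± 101 CPM at stage III (0.000374).

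The chitinase family, the group of Chit1, held 6 tested genes, of which 3 were lower in stage II and 4 in stage III, with none higher in any stage and none called in stages I and IV. Chil3, a chitinase-like lectin, fell from 4092 ± 1505 to 257 ± 159 CPM at stage II (edgeR adjusted p = 0.00156), and its reads may be split with the near-identical Chil4. Chil3 is also on the neutrophil list, of which 12 and 14 of 16 genes were lower in stages II and III, and the part of neutrophil RNA here was not tested. Chil1 fell from 46.4 ± 15.7 to 0.817 ± 0.859 CPM at stage III (0.00374). Chil5 fell from 84.3 ± 6.35 to 1.6 ± 0.508 CPM at stage III (0.000163), and in stage IV it read 7.43 ± 4.32 CPM in steady state and 32.2 ± 5.28 CPM under IL-33 (0.113).

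Genes of histamine handling and cyclic AMP, the group of Hrh2, rose about as often as they fell. Of 28 tested, 3, 3, 7 and 6 were lower in stages I to IV and 1, 3, 5 and 6 higher. Hdc, which encodes the enzyme that makes histamine, rose from 498 ± 97.2 to 1055 ± 119 CPM at stage III (edgeR adjusted p = 0.00179) and from 111 ± 19 to 819.6 ± 189 CPM at stage IV (1.20e-07). Slc22a3, a transporter that takes up histamine, was at 0 in all 3 steady state libraries of stage III and at 90.2 ± 17.3 CPM under IL-33 (2.28e-05). Pde4b, a phosphodiesterase that breaks down cyclic AMP, fell from 515 ± 200.3 to 34.3 ± 14.6 CPM at stage III (0.000117). Gnaq, a G protein alpha subunit, fell from 54.3 ± 18.6 to 8.32 ± 3.38 CPM in the same stage (2.42e-05). Hrh2 itself, untested here, had no library overlap in any stage.

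Regulators of RNA binding and splicing, the group of Rbpms, were called at shares near those of all genes (4.06%, 8.03%, 33.4% and 12.2% in stages I to IV). Of 23 tested, none passed in stage I, 1 was lower and 1 higher in stage II, 5 were lower and 4 higher in stage III, and 2 were lower and 1 higher in stage IV. Celf2, a splicing regulator, fell from 452 ± 104 to 235 ± 18.5 CPM at stage III (edgeR adjusted p = 0.00822). Zfp36l1, which promotes the decay of messenger RNAs, rose from 7.00 ± 6.52 to 96.7 ± 22.8 CPM at stage IV (0.000413).

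**Figure D5:**
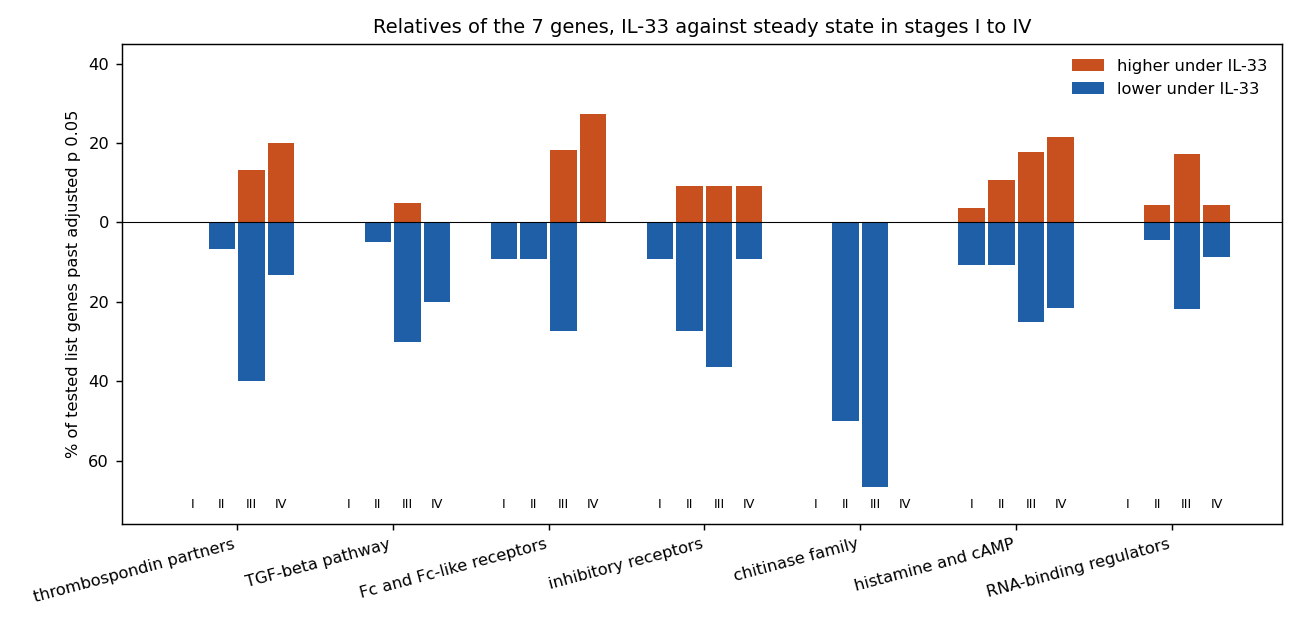
Share of the tested genes of each of 7 lists that passed edgeR's adjusted p of 0.05 between IL-33 and steady state in stages I to IV, higher above the line and lower below it, in percent. In stage III the calls of the chitinase family, 4 of 6 genes, are all lower, and those of the Fc receptors go both ways.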

How the data were processed

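RNA of sorted eosinophils was sequenced in 24 libraries. The authors deposited raw counts per gene symbol, 1 file per library. Alignment with STAR 2.6.1a to mm10 and use of DESeq2 are named in the submitters' processing notes, and the counting tool, its annotation and its strand setting were not given in the sources used here. The library kit does not mark strand. The 2 entries that name no gene, reads in no feature (17.8 to 30.5% of a library in steady state and 9.19 to 16.6% under IL-33) and ambiguous reads (1.73 to 2.60%), were kept out of totals and tests.

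The 7 genes and all lists were chosen with earlier results of these data known. Counts of all 8 groups were fitted together with edgeR 4.0.16 (R 4.3.3), with the filter by expression within groups, TMM scaling, the quasi-likelihood test and Benjamini-Hochberg adjustment over all 12743 genes kept, called at an adjusted p under 0.05. Levels are TMM-scaled CPM. A ratio is of group means, or of scaled counts summed over the group where a group had 3 counts or fewer. A group at 0 was set to the floor of 3 counts over the group ("at least"), and a group of 1 to 3 counts has an exact 95% interval, which covers counting error only. Standard errors are the log2 difference over the root of the F statistic. P-values measure the spread between pools of 3 mice. Libraries of a group differed beyond counting noise (chi-square per degree of freedom 20.0 to 123).

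Alternatives were leaving out the steady state libraries numbered 3 or each library in turn, DESeq2's size factors, library totals, no filter, DESeq2 1.42.0, limma-voom 3.58.1, only the 6 libraries compared, and the library number as a block. Same-numbered libraries deviated together, with every r over 0.1, in steady state stages I to II (0.12 to 0.30) and III to IV (0.11 to 0.22). They did so under IL-33 in stages I to II (0.15 to 0.24) and II to III (0.13 to 0.24). The numbers may pair the libraries in these steps. The main fit held no block, so its calls leave such pairing out, and the block was run as an alternative. Genes named from a list were those called in at least 2 stages with 1 sign, at most 4 per list by mean absolute log2 difference and with 20 CPM in a group, and the most abundant of the list. Genes most like a member were the 3 of highest Pearson correlation. Positions are from GENCODE M21, which matched 24490 of the symbols, and figures were drawn with matplotlib 3.10.9. The model fits were tested on simulated data.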

Additional observations from a re-analysis of the deposited data

How the results depend on the processing

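Of the 7 genes called between stages, steady state I to II gave 1, and 0 without the libraries numbered 3, 0 with library totals, 2 with limma-voom and 0 with only the 6 libraries compared. Steady state II to III gave 5, and 3 without the libraries numbered 3 and 3 with library totals. Steady state III to IV gave 2, and 1 without the libraries numbered 3. IL-33 II to III gave 0, and 1 each with DESeq2, only the 6 libraries and the replicate block. IL-33 III to IV gave 2, and 1 with limma-voom. Leaving out each library in turn gave 0 to 1, 2 to 6 and 1 to 2 in the steps of steady state and 0 to 0, 0 to 0 and 1 to 3 in those of IL-33. It gave 3 to 6, 6 to 7, 5 to 6 and 5 to 7 genes wholly below steady state in stages I to IV. Of list genes called in stages I to IV (7, 22, 54 and 31) it left 3 to 7, 10 to 23, 35 to 51 and 19 to 31, and DESeq2 called 12 in stage I and 37 in stage II. In steady state II to III, where the bar for pairing was not met although 6 of 6 libraries lay closest to their own number, the replicate block called Lrg1 (adjusted p = 0.000931). The cause of these changes was not tested, other than fewer libraries where some were left out.

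Signs that turned were of log2 differences not called. With a library left out, Thbs1 under IL-33 from III to IV ranged from -0.77 to 0.87, and it was 0.29 with limma-voom. Lrg1 under IL-33 from I to II ranged from -3.13 to 0.80. Fcrl1 under IL-33 ranged from -0.36 to 2.23 from I to II and from -0.21 to 1.57 from III to IV. Rbpms in steady state from I to II ranged from -0.52 to 0.28, and Cd72 in steady state from III to IV from -0.031 to 1.78. Cd72 under IL-33 from II to III ranged from -0.43 to 0.75, and was 0.11 with limma-voom and 0.047 with the replicate block. Hrh2 in steady state from II to III ranged from -0.14 to 0.60, and was -0.33 without the libraries numbered 3 and -0.17 with library totals.

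Over all genes, calls in stage I (518) were 1082 with DESeq2, 328 with 6 libraries and 109 to 880 with a library left out. Stage II (1023) gave 1558 with DESeq2, 1577 with limma-voom and 381 to 1033, and stage IV (1550) 802 to 1526. Steady state I to II (620) gave 1190 with DESeq2, 1067 with limma-voom, 21 with 6 libraries and 289 to 675. Steady state II to III (4405) gave 1965 with 6 libraries. Steady state III to IV (1176) gave 1851 with DESeq2, 245 with 6 libraries and 719 to 1230. IL-33 I to II (12) gave 41 without the libraries numbered 3, 38 with DESeq2, 1 with limma-voom and 2 to 11. IL-33 II to III (11) gave 121 without those libraries, 39 without the filter, 108 with DESeq2, 51 with limma-voom, 678 with 6 libraries and 0 to 5. With the replicate block, steady state I to II gave 1069, IL-33 I to II 24 and IL-33 II to III 93. Library totals moved the share of calls that were higher from 66.6 to 40.1% in stage I, 55.4 to 71.4% in stage III, 61.5 to 50.0% in stage IV, 73.5 to 56.3%, 49.7 to 30.6% and 38.5 to 57.0% in the steps of steady state and 45 to 29.7% in IL-33 III to IV, with a shift of the median of all genes of -0.33 to 0.27 on the log2 scale. An IL-33 library at 0 limits a level to 0.201 to 0.290 CPM, so differences between single IL-33 libraries below that were not detectable at this depth.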

Other observations

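Markers of basophils and mast cells were mostly higher under IL-33 in the later stages. Of 9 tested, 3, 2, 7 and 7 were higher under IL-33 in stages I to IV and 1, 2, 1 and 1 lower. Over all genes, 2.71%, 4.06%, 18.5% and 7.48% were called higher and 1.36%, 3.97%, 14.9% and 4.68% lower. Gata2, a transcription factor of mast cells, basophils and eosinophil progenitors, rose from 21.6 ± 8.78 to 704 ± 78.2 CPM in stage III (SD, n = 3, edgeR adjusted p = 2.57e-08) and from 8.81 ± 1.72 to 579 ± 139.9 CPM in stage IV (1.87e-09). Cd200r3, whose product was stained in the sort, rose from 18.3 ± 3.78 to 692 ± 134 CPM in stage IV (1.79e-06). Prss34, a basophil and mast cell protease, fell instead, from 875 ± 455.4 to 25.1 ± 19 CPM in stage II (0.0154).

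Itga2b, an integrin chain of platelets and early progenitors, took a different course in each condition. In steady state it averaged 568, 296, 185 and 35.5 CPM in stages I to IV, and under IL-33 375, 566, 569 and 479 CPM. The 2 conditions differed in stage II (edgeR adjusted p = 0.0329), stage III (9.55e-05) and stage IV (1.35e-08), and not past the threshold in stage I (0.204).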
